A study of Mus musculus with 4 samples.

Results

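The calcineurin and NFAT genes were followed in RNA from freshly isolated pancreatic islets of 30-week-old C57BL/6 mice. The set was given as 10 gene symbols, Nfatc1, Nfatc2, Nfatc3, Nfatc4, Nfat5, Rcan1, Rcan2, Ppp3ca, Ppp3cb and Ppp3r1, and all 10 were found among the 55487 genes of the deposited table. Both genotypes carried floxed Ggcx alleles, the gene of the vitamin K-dependent gamma-glutamyl carboxylase. Control mice were Ggcx flox/flox without Cre (n = 2 libraries), and knockout mice were Ggcx flox/flox; Pdx1-Cre (n = 2 libraries). Each library pooled the islets of 2 mice. Pdx1-Cre recombines in the pancreatic lineage, so exocrine and duct cells carry the deletion as well as endocrine cells. No library carried Cre with intact Ggcx alleles, so the transgene and the loss of Ggcx cannot be told apart. In these whole-islet libraries fewer cells of a type and less RNA per cell cannot be told apart either.

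Calcineurin is a phosphatase that calcium and calmodulin switch on. It pairs a catalytic A subunit (Ppp3ca, Ppp3cb or Ppp3cc) with a calcium-binding B subunit (Ppp3r1 in most tissues), and it dephosphorylates the transcription factors Nfatc1 to Nfatc4, which then enter the nucleus. Kinases such as GSK3, DYRK and CK1 family members send them back to the cytosol. Rcan proteins bind calcineurin and restrain it, and Nfat5, a relative that calcineurin does not control, drives the response to high tonicity. In beta cells calcium entry after glucose activates this pathway, and the calcineurin inhibitors used in transplantation are known to impair insulin secretion and beta-cell growth.

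Rcan1 and Nfatc2 each have 2 start sites in RefSeq, and their upstream sequences, chosen after the values were seen, are shown to compare an upstream with an internal start of a gene. The shorter Rcan1 transcript starts inside the gene and is a known target of NFAT, which makes Rcan1 RNA a common readout of calcineurin activity. The NFAT core motif GGAAA, or TTTCC on the other strand, is in capitals in the 250 bases before each start, printed 5′ to 3′ on the strand of the gene (RefSeq, GRCm38.p6, minus strand in each case).
Rcan1 upstream start, chr16:92466170-92466419: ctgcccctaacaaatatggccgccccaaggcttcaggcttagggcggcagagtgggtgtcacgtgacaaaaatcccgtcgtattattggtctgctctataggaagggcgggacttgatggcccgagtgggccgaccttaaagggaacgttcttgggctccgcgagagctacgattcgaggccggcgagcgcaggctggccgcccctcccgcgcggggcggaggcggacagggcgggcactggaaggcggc
Rcan1 internal start, chr16:92400079-92400328: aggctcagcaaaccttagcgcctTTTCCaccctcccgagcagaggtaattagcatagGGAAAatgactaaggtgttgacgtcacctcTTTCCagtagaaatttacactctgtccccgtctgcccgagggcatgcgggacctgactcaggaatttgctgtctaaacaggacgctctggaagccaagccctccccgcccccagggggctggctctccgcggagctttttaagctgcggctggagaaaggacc
Nfatc2 upstream start, chr2:168601658-168601907: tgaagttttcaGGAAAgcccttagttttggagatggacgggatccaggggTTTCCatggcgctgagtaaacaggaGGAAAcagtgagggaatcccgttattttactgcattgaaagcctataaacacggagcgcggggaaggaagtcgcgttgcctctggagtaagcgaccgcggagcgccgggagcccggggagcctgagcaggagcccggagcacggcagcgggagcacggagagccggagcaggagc
Nfatc2 internal start, chr2:168590366-168590615: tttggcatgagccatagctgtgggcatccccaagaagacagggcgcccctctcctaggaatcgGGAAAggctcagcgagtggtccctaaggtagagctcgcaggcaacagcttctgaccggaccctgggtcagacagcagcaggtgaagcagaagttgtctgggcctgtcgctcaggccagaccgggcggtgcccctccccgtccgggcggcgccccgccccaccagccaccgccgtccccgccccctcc

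The window before the internal Rcan1 start held 3 matches, beginning at positions -227, -193 and -163 from the start, and the window before the upstream Rcan1 start held 0. That internal start lies in an intron of 4 of the 7 Rcan1 transcripts in GENCODE M21. The upstream Nfatc2 start had 3 matches and its internal start had 1. The windows of Ppp3cb and Nfatc4 also held 3 matches each, that of Nfat5 held 2, and the 2 windows of Nfatc3 held 1 and 0. Those of Rcan2 held 2, 0 and 0, and that of Ppp3r1 held 0. Of 32851 mouse promoter windows of the same length, 55.6% held at least 1 match on either strand and 6.39% held at least 3. Promoter windows were found for 8 of the 10 genes (13 windows, 8 of them with a match), and Ppp3ca and Nfatc1 were not among them. A match is only a run of letters, and gene totals do not separate transcripts by start site, so the values below combine both starts.

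Between 47624630 and 51756221 reads were assigned to genes per library. Control libraries are named by their numbers in the deposited table, column 2 and column 3, which differ from the replicate numbers of the labels. Values are read counts normalized by the authors to library size, and each log2 fold change sets knockout against control after adding 1 to the values, ± its standard error (SE), in a limma fit over 16589 tested genes. Ggcx, the targeted gene, had normalized counts of 3971 and 3981 in control and of 234.2 and 643.4 in knockout islets. Its mean fell by 89.0%. The log2 fold change, fitted on logged values, was -3.35 ± 0.35 (limma adjusted p = 0.0163), a call lost under 3 of 14 other settings. Beta-cell markers were present in all 4 libraries. The summed value of 6 genes was 10617282 and 10102513 in control and 10632736 and 10954304 in knockout islets. Both knockout sums were above both control sums, the lower of them only just (median log2 fold change -0.01). The markers of several other cell types were not level between genotypes. The summed acinar markers ran from 12114 to 13779 in control and from 5826 to 10222 in knockout islets (8 genes, none at 0, median log2 fold change -0.74 over the 7 that were tested). Stellate and fibroblast markers ran from 1543 to 2048 in control and from 2443 to 3319 in knockout islets (7 genes, none at 0, median 0.81), and alpha-cell markers from 1173173 to 1369601 and from 1382228 to 1664948 (5 genes, none at 0, median 0.51). Median log2 fold changes were 0.41 for Schwann-cell, 0.33 for pancreatic polypeptide-cell, 0.30 for duct, 0.12 for delta-cell, 0.09 for endothelial and -0.03 for macrophage markers. The summed duct, endothelial and macrophage markers overlapped between genotypes, and the summed Schwann and delta markers were higher in both knockout libraries. The summed pancreatic polypeptide markers were also higher in both, but only just. They stood at 150919 and 105625 in control and at 151248 and 174244 in knockout islets. Whether these shifts have a part in any value below was not tested.

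Levels were compared between genes per kilobase of exon (union of exons in GENCODE M21), as the mean over the 4 libraries. Ppp3r1, the calcium-binding regulatory subunit, had the highest level of the set, 1838 ± 44.2 normalized counts per kilobase (SD, n = 4). Rcan2 followed at 980.1 ± 39.4, Ppp3cb at 752.5 ± 4.99 and Rcan1 at 510.2 ± 43.1 (SD, n = 4 each). Nfat5 (289.6), Nfatc3 (259.3) and Ppp3ca (257.8 per kilobase) overlapped with their neighbours in this order across the 4 libraries. Every other neighbouring pair was separate. Nfatc2 stood at 182.8 and Nfatc1 at 135.9 normalized counts per kilobase. Nfatc4 was far below the rest at 3.86 ± 0.89 (SD, n = 4), from 17 to 29 reads per library. With the length of the longest transcript in place of the union of exons, Ppp3cb moved above Rcan2, and Ppp3ca and Nfatc3 above Nfat5.

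**Figure D1:**
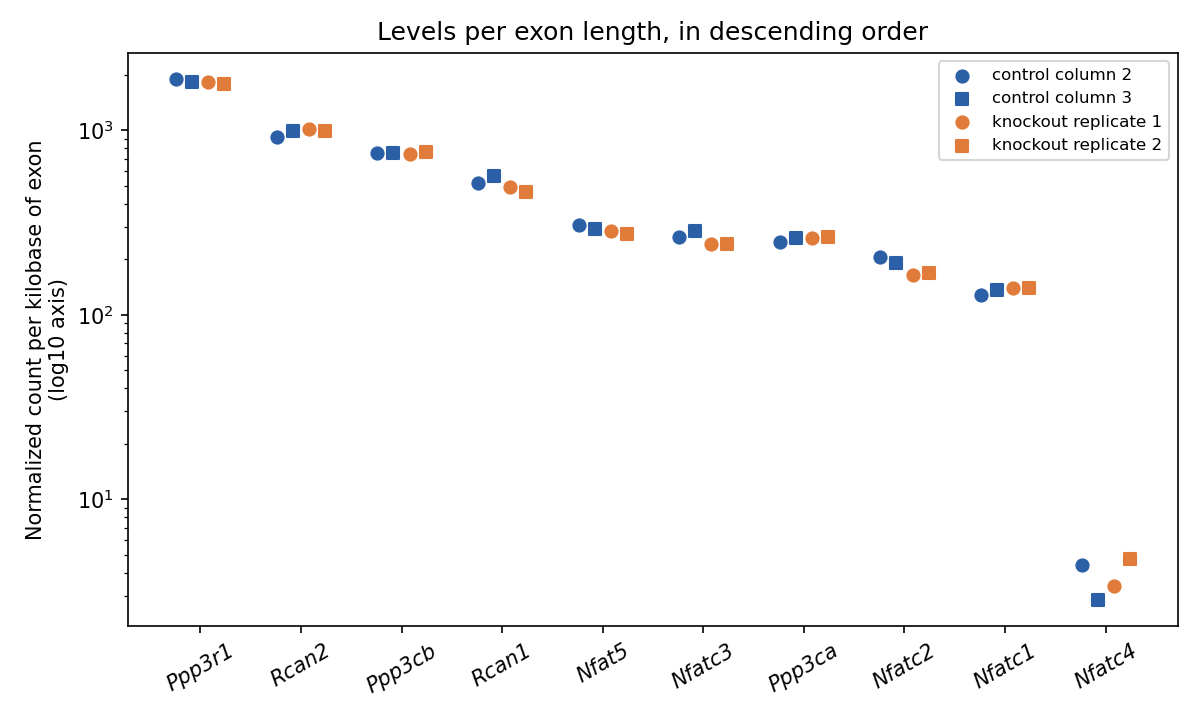
Normalized count per kilobase of exon (log10 axis) of each of the 10 genes in the 4 libraries, in descending order of the mean; circles and squares are the libraries, blue control and orange knockout. Ppp3r1 leads at a mean of 1838 and Nfatc4 ends the order at 3.86.

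Across the set, 0 of 10 genes passed the limma test at an adjusted p under 0.05, where 0.621% of all tested genes did. The count was also 0 with edgeR (0.772% of all genes) and with DESeq2 (2.41% of all genes), both run on whole reads recovered from the values. At an unadjusted p under 0.05, 3 of the 10 had a difference (14.1% of all tested genes). These 3, Nfatc2, Nfatc3 and Rcan1, were lower in knockout islets and 0 were higher, against 7.34% of all tested genes lower and 6.74% higher. Both knockout libraries lay below both control libraries in 5 genes, and 23% of all tested genes did so. Both lay above in 1 gene, and 22% of all tested genes did. The 10 log2 fold changes ran from -0.24 to 0.18, with 5 above and 5 below 0 and a median of -0.02, beside a median of 0.00 over all tested genes.

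**Figure D2:**
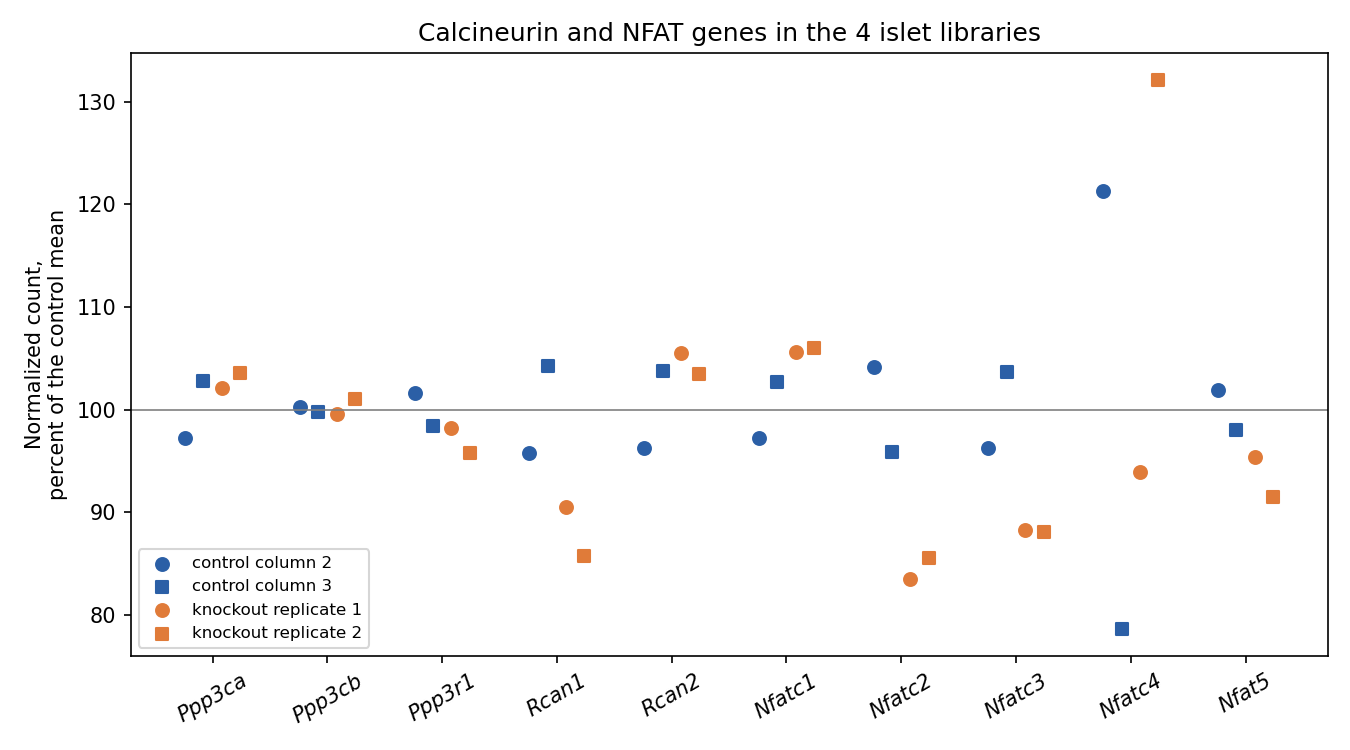
Normalized count of each gene in each library as a percent of its control mean (grey line at 100). Both knockout libraries lie below both controls for Ppp3r1, Rcan1, Nfatc2, Nfatc3 and Nfat5, and above both for Nfatc1. The genotypes overlap for the other 4 genes.

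The phosphatase subunits had nearly the same RNA level in both genotypes. Ppp3cb (ENSMUSG00000021816; GRCm38 chromosome 14, 20499364 to 20546573, minus strand), the beta catalytic subunit, had normalized counts of 6635 and 6603 in control and of 6589 and 6688 in knockout islets. The genotypes overlapped, and the difference was 0.29% with a 95% confidence interval from -6.65% to 7.74%. Its log2 fold change of 0.00 ± 0.05 changed sign with a common total and without knockout replicate 2, staying within 0.01 of 0. Ppp3ca (ENSMUSG00000028161; chromosome 3, 136670124 to 136937727, plus strand), the alpha catalytic subunit, stood at 2468 and 2608 in control and 2592 and 2627 normalized counts in knockout islets. These also overlapped (log2 fold change 0.04 ± 0.05, limma adjusted p = 0.800).

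For the regulatory subunit Ppp3r1 (ENSMUSG00000033953; chromosome 11, 17159263 to 17200375, plus strand) the normalized counts were 6120 and 5927 in control and 5918 and 5772 in knockout islets. Both knockout values were below both control values, the nearest of them by less than the gap between the controls, with a log2 fold change of -0.04 ± 0.05 and an interval from -9.97% to 4.6%. Its exons share 462 bases with Wdr92 on the same strand, which stood at a mean of 537.2 normalized counts. Ppp3cc, the third catalytic subunit gene, had a log2 fold change of -0.03 ± 0.08. Ppp3r2, the B subunit gene known from testis, was at 0 reads in each library.

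The makeup of the catalytic subunit RNA was similar in the genotypes as well. Per kilobase, Ppp3cb made up 61.4% ± 0.63 of the catalytic subunit RNA in control and 61.3% ± 0.21 in knockout islets (SD, n = 2 each). Ppp3ca made up 20.8% ± 0.67 and 21.3% ± 0.09, and Ppp3cc 17.8% ± 0.05 and 17.4% ± 0.31 (SD, n = 2 each). The Ppp3cb share in control islets was 68.5% with the length of the longest transcript.

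Of the inhibitors in the set, Rcan1 was lower in both knockout libraries and Rcan2 was not. Rcan1 (ENSMUSG00000022951; chromosome 16, 92391953 to 92470867, minus strand) stood at 1602 and 1745 normalized counts in control and at 1514 and 1434 in knockout islets. The groups did not overlap, but the gap between the nearest libraries was smaller than that between the controls. The mean went from 1673 ± 101 to 1474 ± 56.5 (SD, n = 2 each), a log2 fold change of -0.18 ± 0.07 with an unadjusted limma p of 0.0231 and an adjusted p of 0.262, which missed the threshold. The 95% interval was -20.6% to -2.15%. The log2 fold change was -0.12 without control column 3 and -0.24 without control column 2.

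Rcan2 (ENSMUSG00000039601; chromosome 17, 43801351 to 44039516, plus strand), a second calcineurin-binding inhibitor, had normalized counts of 4033 and 4348 in control and of 4423 and 4336 in knockout islets. Control column 2 was the lowest library and the genotypes overlapped (log2 fold change 0.06 ± 0.05, limma adjusted p = 0.658). Rcan3, which is outside the 10 genes, was the most abundant of the family per kilobase. It made up 57.0% ± 0.93 of Rcan RNA per kilobase in control and 55.2% ± 1.12 in knockout islets, Rcan2 27.4% ± 0.52 and 30.3% ± 0.996, and Rcan1 15.5% ± 0.41 and 14.5% ± 0.13 (SD, n = 2 each). Like Rcan1, Rcan3 was lower in both knockout libraries, at 10053 and 10310 normalized counts in control and 9782 and 8895 in knockout islets. The log2 fold change of Rcan3 was -0.13 ± 0.06 with a limma adjusted p of 0.358. It was -0.06 without knockout replicate 2 and -0.19 without knockout replicate 1.

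Among the calcium-regulated factors, Nfatc2 and Nfatc3 were lower in both knockout libraries, and Nfatc1 was higher in both by about its standard error. Nfatc2 (ENSMUSG00000027544; chromosome 2, 168476410 to 168601657, minus strand), also called NFAT1, had normalized counts of 2183 and 2009 in control and of 1751 and 1793 in knockout islets. The knockout libraries lay together below both controls. The mean went from 2096 ± 123 to 1772 ± 30.1 (SD, n = 2 each), or -15.5%, and the log2 fold change was -0.24 ± 0.06 with an unadjusted limma p of 0.00363 and an adjusted p of 0.116. By unadjusted p it ranked 516 of the 16589 tested genes. Its 95% interval was -23.2% to -6.79%, and its adjusted p ran from 0.0837 to 0.429 over 14 other settings of the analysis.

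Nfatc3 (ENSMUSG00000031902; chromosome 8, 106058840 to 106130537, plus strand), also called NFAT4, stood at 3112 and 3352 normalized counts in control and at 2854 and 2846 in knockout islets. The nearest control and knockout libraries were about as far apart as the controls were from each other. The mean went from 3232 ± 170 to 2850 ± 5.57 (SD, n = 2 each). Its log2 fold change was -0.18 ± 0.06, at a limma p of 0.0102 unadjusted and 0.182 adjusted. Its exons share 219 bases with Esrp2 on the opposite strand (mean of 334.8 normalized counts), and whether the counting used strand is not given in the sources used here.

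Nfatc1 (ENSMUSG00000033016; chromosome 18), the isoform known as NFAT2, had normalized counts of 959.4 and 1013 in control and of 1042 and 1045 in knockout islets. Both knockout libraries were above both controls by less than the gap between the controls, with a log2 fold change of 0.08 ± 0.07, a limma adjusted p of 0.649 and a 95% interval from -4.71% to 17.5%. Without control column 2 the log2 fold change was 0.04. Nfatc4 (ENSMUSG00000023411; chromosome 14, 55823144 to 55833943, plus strand) stood at 25.5 and 16.6 in control and at 19.8 and 27.8 in knockout islets. At 17 to 29 reads per library its interval of -33.8% to 93.9% was wide, and a difference of the size measured for Nfatc2 was not detectable at this depth. The sign of its log2 fold change (0.18 ± 0.34) turned without control column 3 and without knockout replicate 2.

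Nfatc3 made up the largest part of Nfatc1 to Nfatc4 RNA per kilobase, at 45.2% ± 1.87 in control and 43.8% ± 0.38 in knockout islets (SD, n = 2 each). Nfatc2 made up 32.5% ± 2.27 and 30.2% ± 0.31, and Nfatc4 under 1% in each library. The Nfatc1 share was 21.2% and 22.1% for the controls, and 25.3% and 25.1% for the knockouts. This share did not overlap between genotypes. Neither did the Nfatc2 share, at 34.1% and 30.9% for the controls and 30.0% and 30.4% for the knockouts. The shares of Ppp3cc, Rcan1, Rcan2 and Rcan3 given above did not overlap either. Since shares sum to a whole, the Nfatc1 share moves with Nfatc2 and Nfatc3 as well as with Nfatc1 itself.

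Nfatc2 is abundant in lymphocytes, so their markers were set beside it. Cd3e, a subunit of the T-cell receptor complex, had normalized counts of 2.04 and 0 in control and of 4.16 and 2.88 in knockout islets. Of 8 T- and B-cell markers 7 did not pass the filter on low values, and Cd79a alone stood above it, at a mean of 191 normalized counts. The summed level of the 8 genes was 184.9 and 211.4 in control and 236.3 and 247.4 in knockout islets. Most of that sum was Cd79a, at 162.5 and 195.8 in control and 184.2 and 222.5 in knockout islets, which overlapped. The 3 tested genes whose centred log2 profile lay nearest to that of Nfatc2 over the 4 libraries were Rhobtb1, Mbd4 and Emid1, at Euclidean distances of 0.019, 0.019 and 0.031. With 4 libraries such likeness is common: 242 of 13395 genes with a mean of at least 50 were within 0.1.

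Nfat5 (ENSMUSG00000003847; chromosome 8, 107293470 to 107379517, plus strand), the tonicity-responsive factor, stood at 5613 and 5396 normalized counts in control and at 5249 and 5035 in knockout islets. All 4 libraries were evenly spread, with both knockout values below both controls. The log2 fold change was -0.10 ± 0.05, at an adjusted limma p of 0.433 and a 95% interval from -13.7% to 1.06%.

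**Figure D3:**
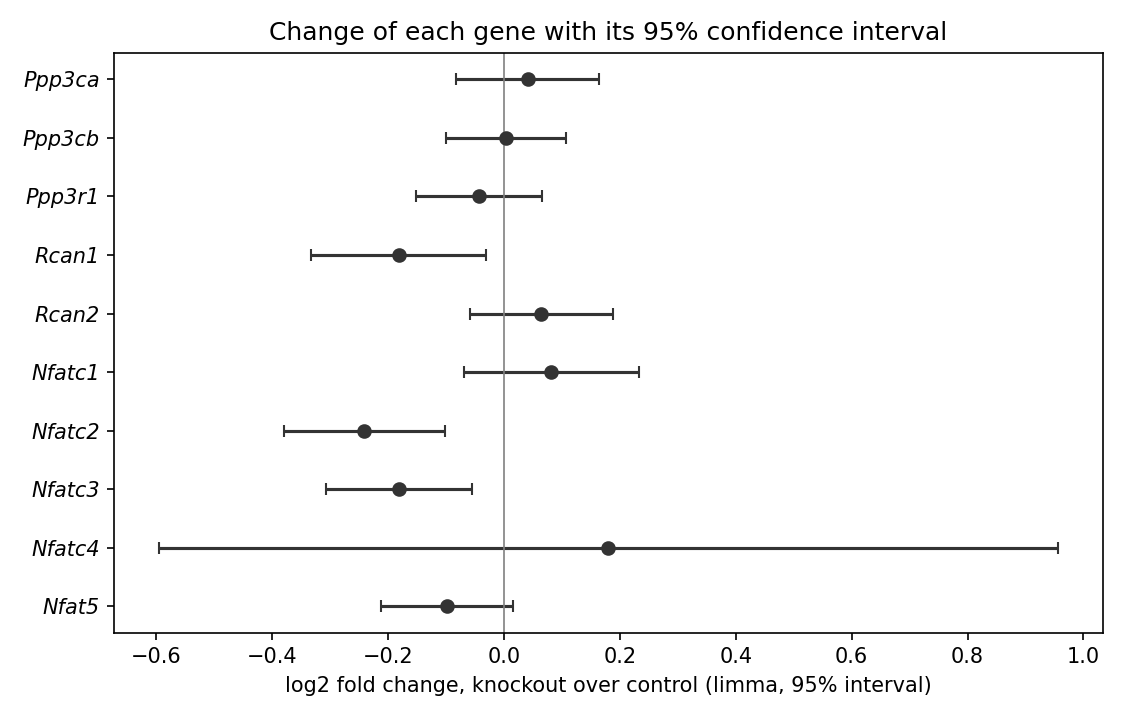
Log2 fold change of each gene, knockout over control, with its 95% confidence interval from limma (not adjusted for the number of genes). The intervals of Rcan1, Nfatc2 and Nfatc3 lie below 0, those of Ppp3ca, Ppp3cb and Ppp3r1 are narrow around 0, and that of Nfatc4 is the widest.

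In the authors' deposited table, which gives control over knockout, the adjusted p was 0.163 for Nfatc2, 0.339 for Nfatc3, 0.577 for Rcan1 and 0.864 for Nfat5. There too no gene of the set passed 0.05, and Nfatc4 has no adjusted p.

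Other genes of the pathway came from 5 lists. Among 12 tested genes of other calcineurin subunits, calmodulins, regulators and binding partners, 0 passed the limma test (0 at an unadjusted p under 0.05, and a median log2 fold change of 0.00). Rcan3, described above, was among the most abundant genes of this list.

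Of 13 tested kinases and partners that move NFAT in and out of the nucleus, 0 passed the limma test (2 at an unadjusted p under 0.05, both lower, with a median of -0.06). These 2 of 13 stand beside 14.1% of all tested genes. Both knockout libraries were below both controls in 7 of the 13, and above in 3, beside 23% and 22% of all tested genes. The same counts, below and above, were 2 and 2 of 12 for the other calcineurin genes. They were 4 and 3 of 12 for the other substrates, 5 and 4 of 23 for the NFAT-regulated islet genes, and 2 and 1 of 9 for the tonicity genes. The most abundant of the 13 kinases and partners were Csnk1a1 and Kpnb1. Csnk1a1, the alpha casein kinase 1, stood at -0.06 ± 0.05 on the log2 scale. Kpnb1, the importin beta that carries cargo into the nucleus, stood at -0.03 ± 0.05. Dyrk2, a kinase that phosphorylates NFAT and was chosen here after its values were seen, had normalized counts of 8667 and 10214 in control and of 7024 and 7589 in knockout islets. Its log2 fold change was -0.37 ± 0.08, with a limma adjusted p of 0.0751. Dyrk1a, also chosen after its values were seen, was the other gene at an unadjusted p under 0.05 (log2 fold change -0.11 ± 0.05, adjusted p of 0.353).

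Among 12 tested calcineurin substrates other than NFAT, 0 passed (2 at an unadjusted p under 0.05, beside 14.1% of all tested genes, and a median of -0.02). The transcription factors Mef2d and Foxo1 stood at -0.08 ± 0.06 and -0.06 ± 0.05. Mef2d was at -0.01 without control column 3 and at -0.15 without control column 2. The 2 below 0.05, named after their values were seen, were the calcium release channel Itpr1 at 0.27 ± 0.08 and the transcription factor Mef2a at -0.14 ± 0.06. On the opposite strand, exons of Mef2a share 302 bases with Lysmd4, and those of Mef2d share 531 bases with 1700113A16Rik. These neighbours had means of 494.3 and 375.1 normalized counts. Itpr1 was at 4273 and 4049 in control and 5505 and 4562 normalized counts in knockout islets, and its limma adjusted p was 0.176.

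Genes that NFAT has been reported to regulate in islets were also examined. Of 23 tested, 0 passed the limma test (5 at an unadjusted p under 0.05, 2 higher and 3 lower, with a median of -0.04). Over all tested genes 14.1% were under 0.05, 6.74% higher and 7.34% lower. Ins1 and Ins2, the insulin genes, had log2 fold changes of 0.12 ± 0.16 and 0.04 ± 0.20. With the mean-variance trend left out, these SEs were 0.07 and 0.06. Ins1 was at 2938484 and 2771882 in control and 3039009 and 3151134 normalized counts in knockout islets, with no overlap. Ins2 overlapped between genotypes. The 5 genes, named after their values were seen, were Neurod1 (-0.18 ± 0.05), Slc2a2 (-0.17 ± 0.05) and Nr4a1 (-0.39 ± 0.13) on the lower side, and the granule genes Ptprn (0.14 ± 0.05) and Chgb (0.14 ± 0.06) on the higher side. Exons of Neurod1 share 201 bases with Cerkl on the same strand (mean of 1455 normalized counts). Nr4a1, an immediate early gene that calcium signals induce, was at 17406 and 23194 in control and 13614 and 17155 normalized counts in knockout islets, so its 2 nearest libraries were close together and the spread within each genotype was wide.

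Among 9 tested tonicity genes known to be bound by Nfat5, 1 fell and 8 did not pass the limma test (median 0.00), beside 0.621% of all tested genes called. The gene was Slc5a3 (ENSMUSG00000089774; chromosome 16, 92058322 to 92087473, plus strand), a sodium-coupled transporter that takes up myo-inositol as an osmolyte. Its normalized counts were 3147 and 3408 in control and 2303 and 2613 in knockout islets, with no overlap. The mean fell from 3277 ± 184 to 2458 ± 219 (SD, n = 2 each), or by 0.42 ± 0.07 on the log2 scale (limma adjusted p = 0.0475). The call was lost without control column 3 (adjusted p of 0.0924), without knockout replicate 1 (0.0892), with a filter at 50 (0.0597), with no filter on low values (0.229) and without the mean-variance trend (0.385). Exons of Slc5a3 share 159 bases with Mrps6 on the same strand (mean of 471.3 normalized counts). The log2 fold changes of the other 8 tested genes ran from -0.10 to 0.30. The lowest was that of Slc38a2, an amino acid transporter (-0.10 ± 0.05), and the highest that of S100a4, a calcium-binding protein (0.30 ± 0.30). Both genes were named after their values were seen. S100a4 had only 29 and 20 reads in control and 28 and 32 in knockout islets, and the genotypes overlapped. Slc38a2 was lower in both knockout libraries than in both controls. Slc6a12, the betaine transporter, had 0 or 1 read per library and was not tested.

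**Figure D4:**
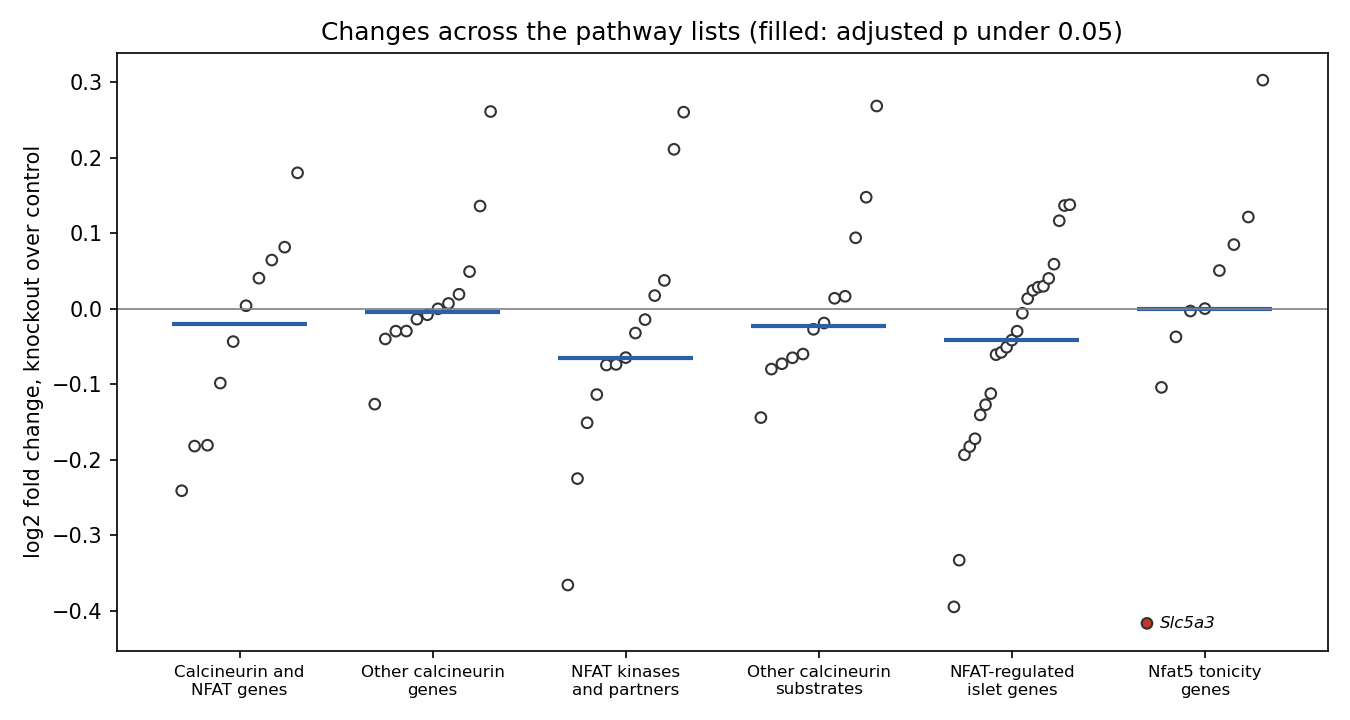
Log2 fold change, knockout over control, of every tested gene in the set of 10 and in the 5 pathway lists, sorted within each list; blue lines are list medians and the filled point passed the limma test at an adjusted p under 0.05. Slc5a3 at -0.42 is the one filled point, and the medians lie between -0.06 and 0.00.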

How the data were processed

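RNA was extracted from freshly isolated islets on RNeasy Plus Mini columns and enriched for poly(A) transcripts, per the labels' protocols. GRCm38, STAR 2.5.1b, DESeq2 1.22.2, featureCounts 1.6.0 and CASAVA 1.4 appear in the submitters' processing notes, without roles. For each library the authors deposited a signal per gene, which they name a count normalized relative to library size. The authors' own log2 fold change, Wald score and p-value (raw and adjusted) are deposited as well; their adjusted p is printed for 4 genes. Whole reads were recovered from 100% of values (within 0.01 of a read). The 2 libraries of each genotype differed beyond sampling noise (chi-square over degrees of freedom 10.1 and 9.85) and were counted separately. P-values measure the spread between these pools. In the limma fit the variance of a gene was drawn largely from that of other genes (2 residual and 6.85 prior degrees of freedom).

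The fit covered the 16589 genes that reached 10 in 2 or more libraries and used limma 3.58.1 (R 4.3.3) on log2(value + 1). It was two-sided, used a mean-variance trend, and adjusted p-values by Benjamini-Hochberg at 0.05. The smallest p that an exact permutation test allows with 2 libraries per genotype is 0.333. The pseudocount understates changes of low genes. Alternatives were other pseudocounts, filters and scalings, robust empirical Bayes, limma with no trend, leaving out each library, edgeR 4.0.16 and DESeq2 1.42.0. The steps were tested on simulated data. The genes and lists were chosen with earlier results of these data known. Named were the 10 genes, Ggcx, up to 4 called genes or else the 2 most abundant of each list, and the 3 nearest profiles to the gene of lowest p. A gene that this rule names is not reported here. Others named are marked as chosen after their values were seen. A search for a calcineurin docking motif in the proteins was not run, as protein sequences were not used here. Positions and lengths are from GENCODE M21 on GRCm38, which holds 99.4% of the table's identifiers.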

Additional observations from a re-analysis of the deposited data

How the results depend on the processing

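None of the 10 genes passed the test under any of 14 alternatives, and 135 of their 139 recomputed log2 fold changes kept their direction (Nfatc4 had no value with a filter at 50). The 4 that turned belong to Ppp3cb, at -0.0036 with a common total and -0.0066 without knockout replicate 2, and to Nfatc4, at -0.12 without control column 3 and -0.06 without knockout replicate 2. Over the 10 genes the lowest adjusted p was 0.0826, for Nfatc3 without control column 2. Leaving out 1 library gave Nfatc4 log2 fold changes from -0.12 to 0.48 and Ppp3cb from -0.0066 to 0.015. The ranges were 0.04 to 0.12 for Nfatc1, 0.01 to 0.12 for Rcan2, 0.0008 to 0.08 for Ppp3ca, -0.07 to -0.02 for Ppp3r1, -0.13 to -0.07 for Nfat5, -0.24 to -0.12 for Rcan1, -0.30 to -0.18 for Nfatc2 and -0.23 to -0.13 for Nfatc3, the lowest for Nfatc1, Rcan2 and Ppp3ca without control column 2.

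Over all genes, 41 were called higher and 62 lower. The counts were 1 and 1 with no filter, 19 and 32 with a filter at 50, 0 and 0 without the trend (limma; 57 and 71 with edgeR), 85 and 124 with robust empirical Bayes, and 120 and 202 with DESeq2 (3217 adjusted p-values left NA). Leaving out 1 library gave 49 to 178 higher and 47 to 219 lower, the highest counts without control column 2. Higher calls made up more of the total with a common upper quartile (57 and 55). The Ggcx log2 fold change stayed at -3.35 with no filter (adjusted p of 0.217), without the trend (0.329) and with robust empirical Bayes (0.294), where its call ended.

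With the length of the longest transcript, the level per kilobase was 2076 for Ppp3r1, 1730 for Ppp3cb, 1293 for Rcan2, 677.3 for Rcan1, 540.9 for Ppp3ca, 508.2 for Nfatc3, 396.0 for Nfat5, 283.2 for Nfatc2, 211.6 for Nfatc1 and 5.94 for Nfatc4. The cause of these changes is the shorter length, and the cause of the other changes was not tested. No paired analysis was possible because the control libraries are numbered 2 and 3 in the table but 1 and 2 in the labels. The labels also state no pairing of control with knockout pools, so the replicate numbers may only name the samples. Nfatc4 had the fewest reads of the 10 genes.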
